A study of Triticum aestivum with 16 samples.

Results

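The genes of wheat chromosome 5B are described here in the hexa-mutant M6 and in wild type (WT). Members were all identifiers of chromosome 5B with at least 1 TPM, a length-corrected transcript abundance scaled to a common total per library, in at least 2 of 8 libraries of the cultivar Zhengmai7698, and the copies of VRN1 and SPL17 on this chromosome were left out by the rule. Of 5574 identifiers listed for 5B, 2659 were members, out of 50878 rows of all chromosomes that passed the same TPM filter, and 1257 of the 5B identifiers stood at 0 in all 8 libraries. The chromosome was chosen because earlier results from these libraries had many M6 differences on it, so its M6 against WT values are given as a description, and nothing is supported with them. The chromosomes 5A, with 2681 members, and 5D, with 2803, are set beside it.

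Bread wheat is a hexaploid whose nucleus holds the A, B and D subgenomes, and chromosomes 5A, 5B and 5D are its homoeologous group 5, which carry mostly corresponding genes. Identifiers of this wheat annotation are numbered along each chromosome, so identifier order stands in for position. SPL proteins are plant transcription factors with an SBP domain, known for roles in phase change, branching and inflorescence development, and as diffusible factors they can bind near genes on any chromosome. Chromosome 5B is known for the Ph1 locus, which keeps homoeologous chromosomes from pairing at meiosis.

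M6 shoot apices, M6 axillary buds, WT shoot apices and WT axillary buds were taken from Zhengmai7698 seedlings at 2 weeks, with 2 libraries in each group. M6 is labelled TaSPL7-aabbdd TaSPL15-aabbdd, a mutant of the A, B and D copies of both genes. The number of mutant lines behind M6, how they were made and crossed, and whether the 2 libraries of a group came from separate plants are not given in the sources used here, so the spread between libraries may be technical. Libraries of the cultivar AiKang58 (AK58) were used for levels only, from shoot apex, leaf and root at 2 weeks and axillary bud at 6 weeks after 30 days at 4 °C. The TPM tables hold no gene names, and the reference gene table matched 0 identifiers. The mutated genes, tissue markers and the roles of single 5B genes were therefore not analysed here.

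The 8 libraries had between 70100 and 73715 identifiers above 0 TPM, and between 2637 and 2652 of the 5B members stood above 0. The 5B members held 5.02% to 5.32% of all TPM in a library, against 5.54% to 5.93% for 5A and 5.48% to 6.02% for 5D. TPM keeps no record of read depth, so no counting interval is given for ZM7698 values. Over 5B members the replicate libraries correlated with Pearson's r of 0.984 in M6 apex, 0.952 in M6 bud, 0.972 in WT apex and 0.984 in WT bud, on log2(TPM + 1) across genes that are not independent. M6 bud replicate 1 stood above replicate 2 for 62.5% of the 5B members, and WT bud replicate 1 stood above replicate 2 for 33.4%. By the correlation, M6 bud was the group whose libraries stood farthest apart. The bulk samples cannot tell fewer cells of a type from less RNA per cell.

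M6 and WT differed on 5B in few genes, but by a large amount in some and with the same sign in both tissues. A call needed an adjusted p under 0.05 in limma (Benjamini-Hochberg over 50878 rows) and a log2 fold change, M6 over WT on log2(TPM + 1), of 1 or more in size. In the shoot apex 11 of the 5B members were called higher and 9 lower in M6, which is 0.752% of them, beside 0.134% of all tested rows, with 0.0786% higher and 0.055% lower. In the axillary bud 11 were called higher and 11 lower, which is 0.827% of members, beside 0.147% of all rows, with 0.0806% higher and 0.0668% lower. Together 24 members were called in at least 1 tissue, 13 higher and 11 lower, beside 0.185% of all rows, and 18 of them in both tissues in the same direction, beside 0.0963% of all rows. The sign of the fold change was the same in both tissues for 24 of 24. For the 18 this follows from how they were counted. The 2 called in apex only and the 4 called in bud only had the same sign in the other tissue.

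These counts moved with single libraries. Without any 1 of the 4 shoot apex libraries or the 2 WT bud libraries, 2 to 5 genes were called higher and 3 lower in the apex, against 14 and 9 without either M6 bud library. In the bud, 2 to 7 were called higher and 4 to 7 lower without any 1 library other than M6 bud replicate 2, and 101 and 48 without that library, when 100 were called on 5A and 99 on 5D. The calls of TraesCS5B02G061400, TraesCS5B02G080800, TraesCS5B02G107400, TraesCS5B02G260600 and TraesCS5B02G552000 in both tissues, and of TraesCS5B02G202800 in bud, held without each library in turn.

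**Figure D1:**
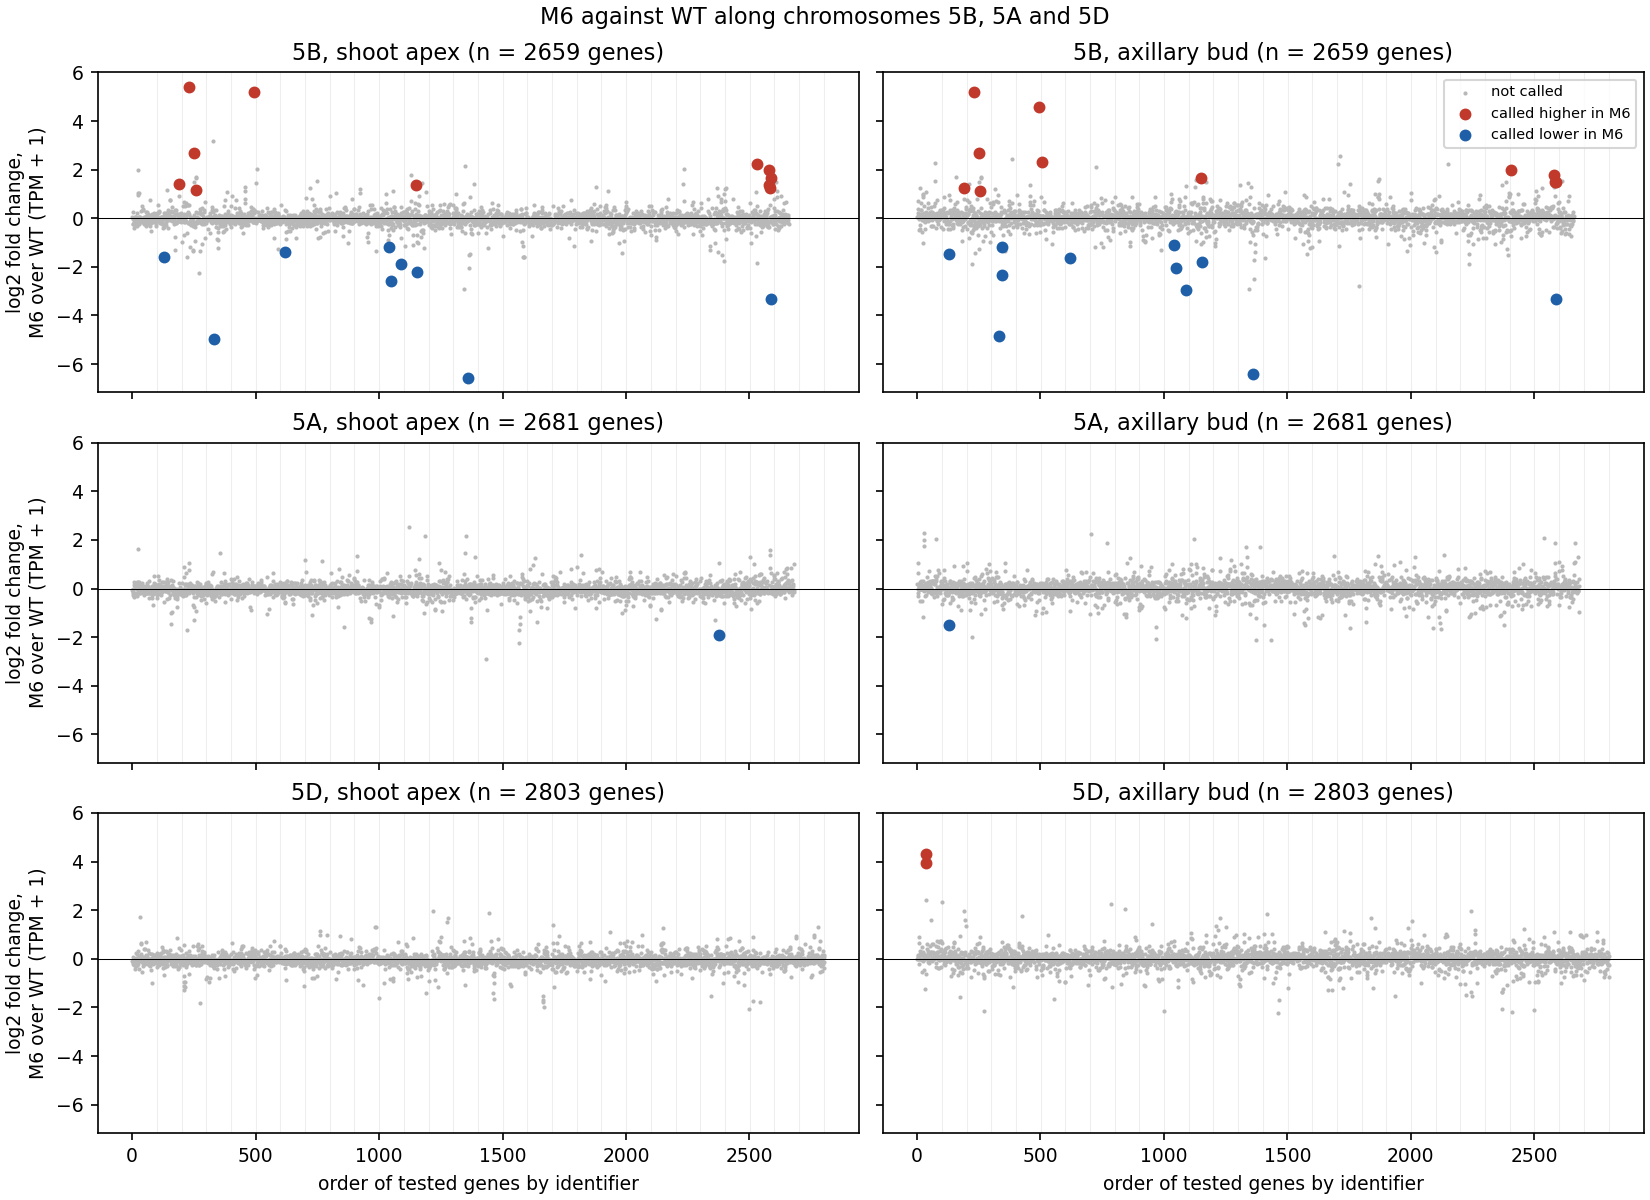
Log2 fold change of M6 over WT on log2(TPM + 1) against identifier order for the members of 5B (top), 5A (middle) and 5D (bottom), with shoot apex on the left, axillary bud on the right and called genes in red (higher in M6) or blue (lower). The called 5B genes stand in 3 stretches with no call in the 1042 members between TraesCS5B02G260600 and TraesCS5B02G504600. For genes at 0 in a genotype the plotted value depends on the added 1 TPM.

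Along the chromosome the calls fell in 3 stretches, which were drawn after the values were seen, at gaps of at least 400 members. The first stretch ran from TraesCS5B02G036000 to TraesCS5B02G124600 and held 11 called genes among 490 members, 6 higher and 5 lower in M6. The second ran from TraesCS5B02G193600 to TraesCS5B02G260600 and held 6 among 322, 1 higher and 5 lower. The third ran from TraesCS5B02G504600 to TraesCS5B02G552600 and held 7 among 184, 6 higher and 1 lower. The stretches were not blocks of 1 direction, since higher and lower genes stood in each of them. No member was called among the 128 before the first stretch, the 422 between the first and the second, the 1042 between the second and the third, and the 71 after the third.

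In the first stretch, some genes had signal in 1 genotype and little or none in the other. TraesCS5B02G061400 had 40.6 and 42.3 TPM in M6 apices and 32.5 and 39.2 TPM in M6 buds, and it was listed at 0 in the 4 WT libraries. TraesCS5B02G064700 had 5.15 and 5.64 TPM in M6 apices and 6.45 and 4.45 TPM in M6 buds, and it too was listed at 0 in the 4 WT libraries. TraesCS5B02G107400 had 41.8 and 40.5 TPM in M6 apices and 24.4 and 28.3 TPM in M6 buds, against 0.167 and 0.147 TPM in WT apices and 0.139 and 0.176 TPM in WT buds. These genes were high in every M6 library and near or at 0 in every WT library, so the genotypes did not overlap in either tissue. The log2 fold change of TraesCS5B02G107400 was 5.19 ± 0.11 in apex and 4.56 ± 0.11 in bud (SE of the limma fit, n = 2 libraries a group), and 7.32 and 6.68 with 0.1 TPM added in place of 1.

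The reverse was seen in the same stretch. TraesCS5B02G080800 had 0 and 0.00701 TPM in M6 apices and 0 and 0.00897 TPM in M6 buds, against 30.4 and 30.1 TPM in WT apices and 27.3 and 28.0 TPM in WT buds. TraesCS5B02G124600 was listed at 0 in the 4 M6 libraries, against 1.78 and 1.5 TPM in WT apices and 1.84 and 2.32 TPM in WT buds. Both genes were expressed in WT at nearly the same level in the 2 tissues. No fold change is given for genes with a library listed at 0 in a genotype. The 2 calls of TraesCS5B02G124600 were lost with 0.1 TPM added in place of 1.

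Other genes of the first stretch had signal in all 8 libraries, though for some of them it stayed under 1 TPM in 1 genotype. TraesCS5B02G036000 fell to 0.473 and 0.675 TPM in M6 apices and 0.852 and 0.452 TPM in M6 buds, against 3.72 and 3.66 TPM in WT apices and 3.66 and 3.33 TPM in WT buds. Its log2 fold change was -1.58 ± 0.16 in apex and -1.45 ± 0.16 in bud. TraesCS5B02G051900 rose to 4.06 and 4.32 TPM in M6 apices and 4.12 and 3.84 TPM in M6 buds, against 0.969 and 0.925 TPM in WT apices and 0.979 and 1.25 TPM in WT buds. The M6 bud libraries of TraesCS5B02G036000 lay farther apart in proportion than its WT libraries. For both genes M6 and WT libraries did not overlap, which held for 23 of the 24 called genes. With 0.1 TPM added in place of 1, both calls of TraesCS5B02G036000 were lost. The log2 fold change of TraesCS5B02G051900 was 1.41 ± 0.12 in apex and 1.24 ± 0.12 in bud. TraesCS5B02G065700 rose to 2.57 and 2.60 TPM in M6 apices and 2.50 and 2.70 TPM in M6 buds, against 0.606 and 0.605 TPM in WT apices and 0.702 and 0.618 TPM in WT buds, a log2 fold change of 1.16 ± 0.12 in apex and 1.12 ± 0.12 in bud. TraesCS5B02G109600 was called in bud only, at 7.37 and 4.31 TPM in M6 buds against 0.258 and 0.433 TPM in WT buds, and it stood at 5.44 and 4.32 TPM in M6 apices against 0.545 and 0.358 TPM in WT apices. All 4 of its M6 libraries lay above all 4 WT libraries.

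Within the first stretch, TraesCS5B02G083100 and TraesCS5B02G083300 were neighbours among the members and were both called lower in M6 bud only. TraesCS5B02G083100 had 2.94 and 2.49 TPM in M6 buds against 7.16 and 7.59 TPM in WT buds, and 2.50 and 3.02 TPM in M6 apices against 5.99 and 5.51 TPM in WT apices. TraesCS5B02G083300 had 3.80 and 4.50 TPM in M6 buds against 21.9 and 28.4 TPM in WT buds, and 1.18 and 1.41 TPM in M6 apices against 2.12 and 1.96 TPM in WT apices. For TraesCS5B02G083300 the M6 bud libraries overlapped the range of the WT libraries over apex and bud, which held for no other called gene. The next member, TraesCS5B02G083400, was not called, at 9.91 ± 1.85 TPM in M6 apices against 24.4 ± 0.21 in WT apices and 8.04 ± 1.05 TPM in M6 buds against 20.2 ± 0.98 in WT buds (SD, n = 2). On the other side TraesCS5B02G082700 had a log2 fold change of 0.03 in apex and -0.16 in bud. The difference thus ended between 1 member and the next on that side.

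The called genes of the second stretch were mostly lower in M6. TraesCS5B02G260600 had 0.127 and 0 TPM in M6 apices and was listed at 0 in both M6 buds, against 103 and 95.2 TPM in WT apices and 91.9 and 78.4 TPM in WT buds, the highest WT level among the called 5B genes. TraesCS5B02G202800 had 0 and 0.0365 TPM in M6 apices and 0.0194 and 0.164 TPM in M6 buds, against 3.05 and 2.51 TPM in WT apices and 6.36 and 8.53 TPM in WT buds. Both were close to absent in M6, and TraesCS5B02G202800 was the one whose WT level differed by tissue.

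TraesCS5B02G193600 fell to 3.57 and 3.70 TPM in M6 apices and 4.50 and 4.01 TPM in M6 buds, against 9.96 and 9.32 TPM in WT apices and 9.52 and 11.1 TPM in WT buds, a log2 fold change of -1.2 ± 0.12 in apex and -1.11 ± 0.12 in bud. TraesCS5B02G195500 fell to 1.57 and 0.997 TPM in M6 apices and 2.15 and 1.11 TPM in M6 buds, against 12.1 and 13.2 TPM in WT apices and 10.3 and 9.12 TPM in WT buds, a log2 fold change of -2.59 ± 0.22 in apex and -2.05 ± 0.22 in bud. TraesCS5B02G218600 fell to 1.68 and 1.15 TPM in M6 apices and 1.52 and 2.49 TPM in M6 buds, against 10.2 and 10.3 TPM in WT apices and 9.45 and 9.12 TPM in WT buds, a log2 fold change of -2.23 ± 0.18 in apex and -1.79 ± 0.18 in bud. All 3 kept some signal in M6, and none of their M6 libraries reached a WT library. Among the called genes of this stretch, TraesCS5B02G217300 was the one that rose. It had 6.78 and 6.77 TPM in M6 apices and 6.86 and 6.64 TPM in M6 buds. Its WT values were 2.02 and 1.99 TPM in apices and 1.63 and 1.32 TPM in buds. The log2 fold change was 1.37 ± 0.11 in apex and 1.65 ± 0.11 in bud.

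The called genes of the third stretch were mostly higher in M6. TraesCS5B02G504600 was called in bud, at 5.71 and 5.27 TPM in M6 buds against 0.759 and 0.510 TPM in WT buds, and stood at 4.39 and 3.63 TPM in M6 apices against 0.915 and 1.31 TPM in WT apices. TraesCS5B02G536000 was called in apex, at 6.29 and 6.60 TPM in M6 apices against 0.418 and 0.728 TPM in WT apices, and stood at 2.11 and 2.14 TPM in M6 buds against 0.417 and 0.217 TPM in WT buds. TraesCS5B02G549000 was called in apex, at 1.68 and 1.54 TPM in M6 apices against 0.00447 and 0 TPM in WT apices, and stood at 1.66 and 1.28 TPM in M6 buds while listed at 0 in both WT buds. For these 3 the uncalled tissue had the same direction, and M6 libraries lay above WT libraries there too.

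TraesCS5B02G549700 and TraesCS5B02G549800 were neighbours and both rose. TraesCS5B02G549700 had 8.59 and 8.5 TPM in M6 apices and 6.77 and 6.99 TPM in M6 buds, against 1.34 and 1.55 TPM in WT apices and 1.28 and 1.37 TPM in WT buds, a log2 fold change of 1.97 ± 0.10 in apex and 1.76 ± 0.10 in bud. TraesCS5B02G549800 had 10.02 and 9.13 TPM in M6 apices and 10.8 and 8.79 TPM in M6 buds, against 3.39 and 3.48 TPM in WT apices and 2.73 and 2.84 TPM in WT buds, a log2 fold change of 1.25 ± 0.12 in apex and 1.51 ± 0.12 in bud. The members on either side of the pair were not called: TraesCS5B02G549200 had a log2 fold change of -0.12 in apex and -0.36 in bud, and TraesCS5B02G550300 one of 0.53 in apex and 0.90 in bud.

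TraesCS5B02G552000 and TraesCS5B02G552600 were neighbours too, but moved in opposite directions. TraesCS5B02G552000 was listed at 0 in the 4 M6 libraries, against 9.38 and 8.54 TPM in WT apices and 8.90 and 9.14 TPM in WT buds. TraesCS5B02G552600 rose to 14.4 and 13.0 TPM in M6 apices and 14.1 and 13.8 TPM in M6 buds, against 4.05 and 3.28 TPM in WT apices and 3.94 and 4.56 TPM in WT buds, a log2 fold change of 1.66 ± 0.13 in apex and 1.51 ± 0.13 in bud. The members flanking this pair were not called, with log2 fold changes of 0.06 in apex and -0.01 in bud for TraesCS5B02G551900 and of -0.13 in apex and -0.23 in bud for TraesCS5B02G554400. A gene absent from M6 thus stood next to one raised in M6, between neighbours near 0 change.

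**Figure D2:**
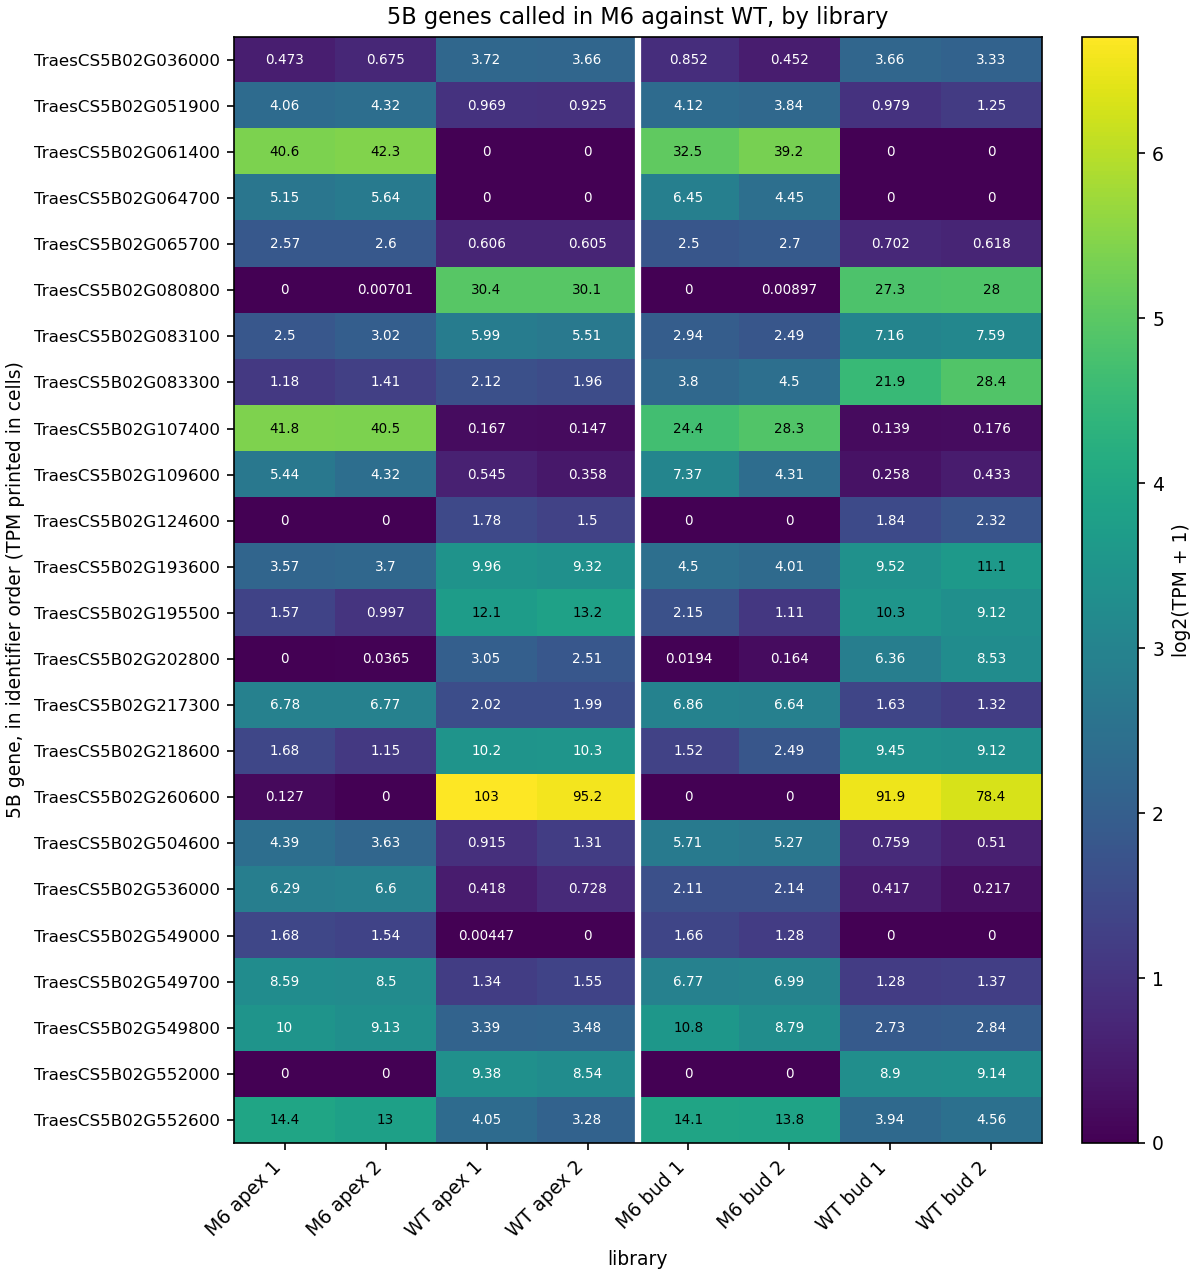
TPM in each of the 8 Zhengmai7698 libraries for the 24 called 5B genes, in identifier order, with apex libraries on the left and bud libraries on the right, M6 left of WT in each, and the colour on a log2(TPM + 1) scale. TraesCS5B02G260600 reads 0.127 and 0 TPM in M6 apices against 103 and 95.2 TPM in WT apices.

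Of the 5B members, 9 were switched, meaning under 0.1 TPM in all 4 libraries of 1 genotype and at least 1 TPM in all 4 of the other: 6 had signal in M6 and 3 in WT. That is 0.338% of the 5B members, beside 0.0511% of all tested rows, with 0.0354% higher and 0.0157% lower in M6, and 0 members on 5A and 0 on 5D. Across the other 20 chromosomes the count ran from 0 to 6. The 6 were on 6B, where they made 0.299% of its tested genes, a share near that of 5B. A switched gene passes the TPM filter through 1 genotype alone, so it had to differ. 6 of the 9 were called, namely TraesCS5B02G061400, TraesCS5B02G064700, TraesCS5B02G080800, TraesCS5B02G124600, TraesCS5B02G549000 and TraesCS5B02G552000. The other 3 were low: TraesCS5B02G064800 had 1.86 and 1.82 TPM in M6 apices and 2.26 and 1.46 TPM in M6 buds and was listed at 0 in WT, TraesCS5B02G221900 had 2.04 and 1.44 TPM in M6 apices and 2.73 and 1.06 TPM in M6 buds and was listed at 0 in WT, and TraesCS5B02G102700 had 1.11 to 2.22 TPM in M6 against 0.0139 to 0.0394 TPM in WT. These 3 are named after their values were seen. TraesCS5B02G064700 and TraesCS5B02G064800 are neighbours, and among the Zhengmai7698 libraries both were found in M6 only.

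The fold changes of the 2 tissues were next set against each other, since M6 apex and M6 bud were each compared with their own WT libraries. Across the 2659 members the log2 fold changes in apex and bud had a Pearson's r of 0.546, and of 0.315 over the 2635 members that were not called. On 5A the values were 0.159 for its members and 0.149 without the called ones, and on 5D they were 0.123 and 0.117. The other 20 chromosomes ran from 0.0424 to 0.410, with the highest on 1D. The Spearman's rho on 5B was 0.125, against 0.0172 on 5A and -0.0062 on 5D, and the other 20 chromosomes ran from -0.0346 to 0.0251. Genes are not independent replicates, and no test is given. The median log2 fold change of 5B members was -0.04 in apex and 0.04 in bud, beside -0.05 and 0.03 over all tested rows, so the chromosome as a whole stood neither higher nor lower in M6.

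**Figure D3:**
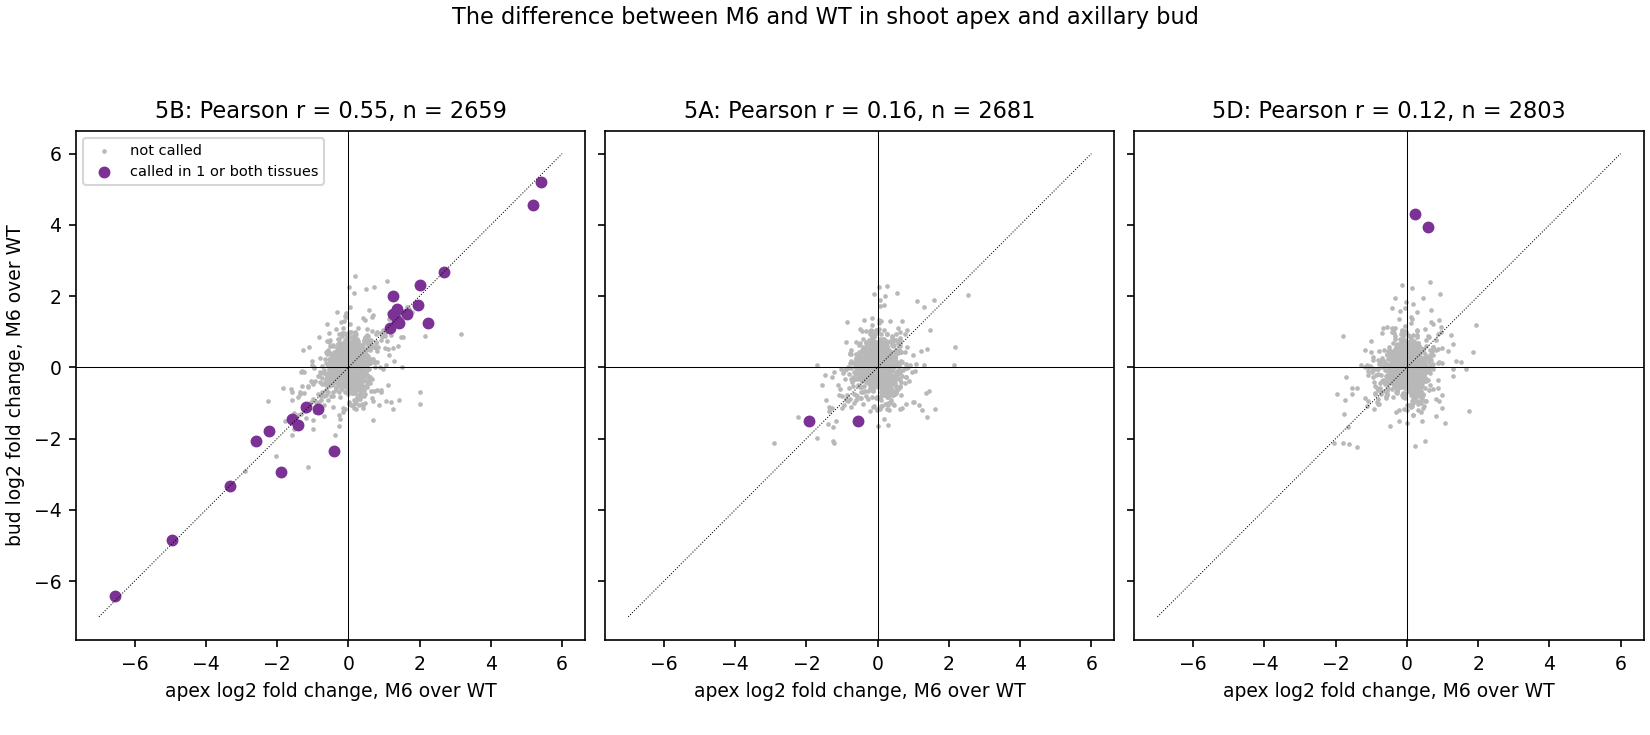
Log2 fold change of M6 over WT in axillary bud (vertical) against shoot apex (horizontal) for the members of 5B, 5A and 5D, with called genes enlarged. The called 5B genes lie in the 2 quadrants where both tissues have the same sign, which follows from the calls for those called in both tissues. Pearson's r is 0.546 on 5B, 0.159 on 5A and 0.123 on 5D.

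On 5B, 44 members had a log2 fold change of 1 or more in size with the same sign in both tissues, 22 higher and 22 lower in M6. That is 1.65% of members, beside 0.596% of all tested rows, with 0.269% higher and 0.326% lower. On 5A there were 18, or 0.671%, with 5 higher and 13 lower, and on 5D 8, or 0.285%, with 1 higher and 7 lower. With single libraries left out, the counts ran from 42 to 54 on 5B, from 8 to 22 on 5A and from 5 to 14 on 5D, with 8 on 5A reached without WT bud replicate 1 and 14 on 5D without WT bud replicate 2. At a smaller size, an absolute log2 fold change of 0.5 in both tissues, 128 members of 5B stood, or 4.81%, beside 2.54% of all rows, with 1.23% higher and 1.3% lower, and 55 on 5A and 58 on 5D. For 205 members, 7.71%, the 4 M6 and the 4 WT libraries did not overlap, 105 higher and 100 lower in M6, beside 4.7% of all rows, with 1.92% higher and 2.78% lower. On 5A this held for 125, or 4.66%, and on 5D for 101, or 3.60%.

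Of the 44, 22 were not called, 9 higher and 13 lower in M6, and for 7 of these the M6 and WT libraries overlapped. TraesCS5B02G256400, named after its values were seen, had 29.0 and 14.5 TPM in M6 apices and 51.1 and 102 TPM in M6 buds, against 165 and 155 TPM in WT apices and 558 and 545 TPM in WT buds. Its 2 M6 libraries in each tissue differed by more than its WT libraries, and yet every M6 value lay below every WT value. TraesCS5B02G261300, also named after its values were seen, had 10.1 and 3.95 TPM in M6 apices and 1.3 and 1.71 TPM in M6 buds, against 16.2 and 52.7 TPM in WT apices and 36.0 and 4.31 TPM in WT buds. Here the WT libraries of a tissue disagreed by more than 3 times, and M6 and WT overlapped.

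In bins of 100 members in identifier order, 11 of 27 bins on 5B held a called gene, which is 40.7%. On 5A it was 2 of 27 bins and on 5D 1 of 28, with a last 5D bin of 3 members left out. The bins of a chromosome are not replicates, and 5B was chosen for its M6 differences, so no interval is given. The last bin of 5B held 59 members. The bin with the most called genes was the 26th, TraesCS5B02G525700 to TraesCS5B02G557400, with 6, while the bins with 3 were the 3rd, the 4th and the 11th. The 3rd bin, TraesCS5B02G054400 to TraesCS5B02G074400, had the most members with a log2 fold change of at least 1 in both tissues, 8, of which 6 were higher and 2 lower, and the most without overlap of M6 and WT, 22. On 5A and 5D no bin had more than 3 and 2 members with such a fold change, and no bin had more than 10 and 7 without overlap. Bin medians of the log2 fold change on 5B ran only from -0.08 to 0.03 in apex and from -0.04 to 0.11 in bud, so no bin shifted as a whole.

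**Figure D4:**
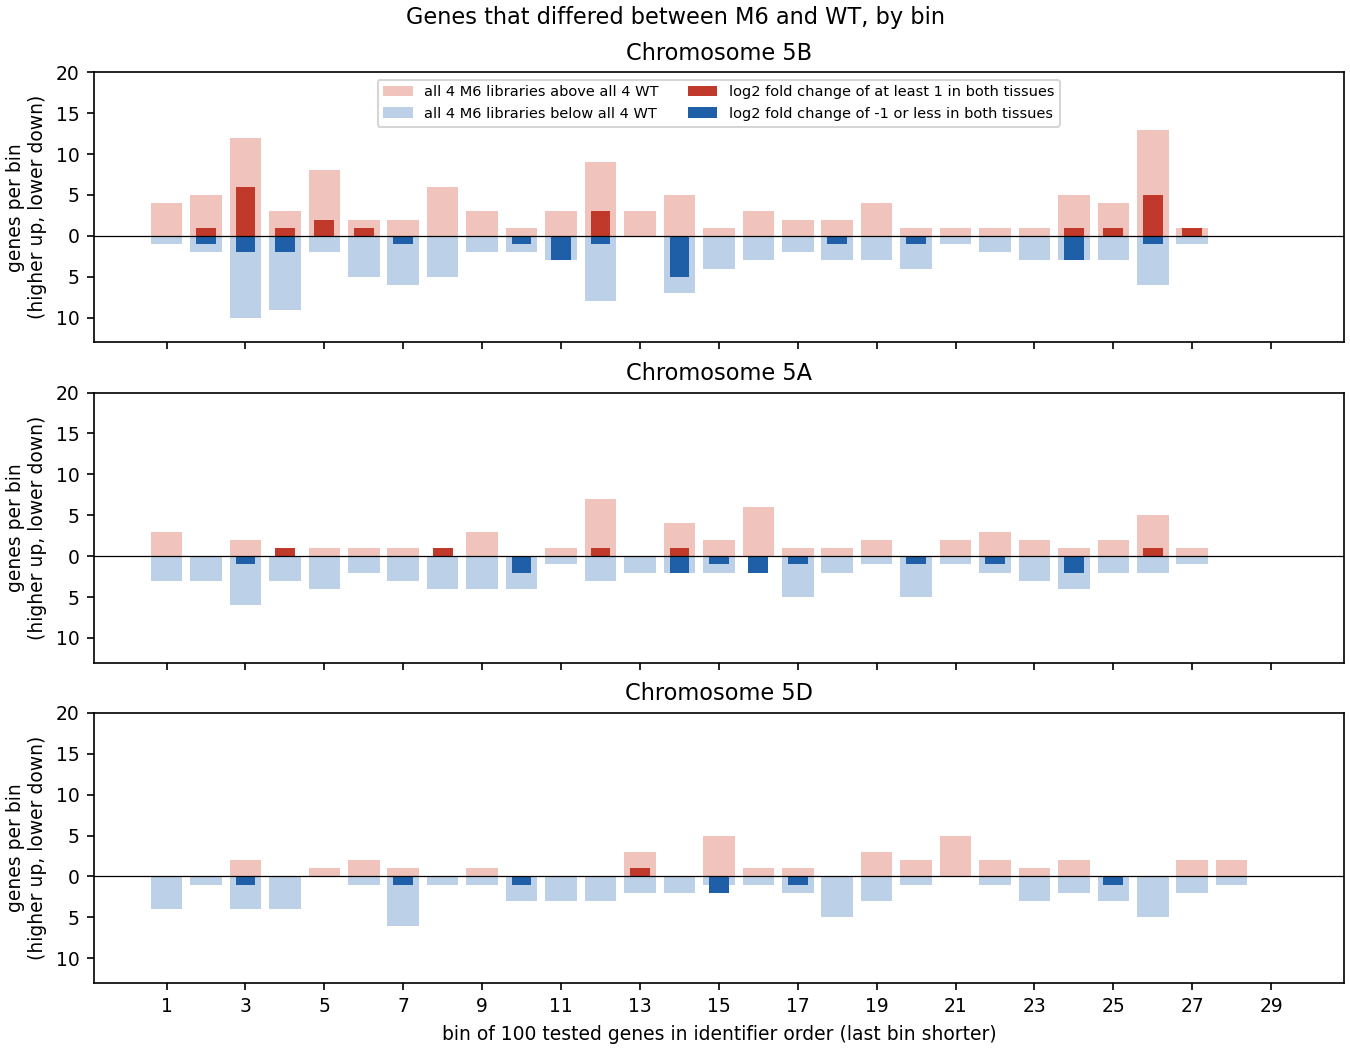
Members per bin of 100 on chromosomes 5B, 5A and 5D for which the 4 M6 and 4 WT libraries did not overlap, and members whose log2 fold change was 1 or more in size with the same sign in both tissues, drawn as light and dark bars with genes higher in M6 above the line and lower below it. Summed over both directions, the 5B bins reach 22 and 8 members, the 5A bins 10 and 3, and the 5D bins 7 and 2.

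The 11 bins with a called gene held 36 of the 44 members with that fold change in both tissues, and the other 16 bins held 8. M6 and WT did not overlap for 127 of the 1100 members of the 11 bins, or 11.5%, and for 78 of the 1559 members of the other 16, or 5.0%. The bins were sorted by their calls, so every called gene fell in the 11 bins by construction. Of the 44 members, 22 were not called, and 23 of the 24 called genes were without overlap. Neither contrast is therefore read as clustering. Within bins, the Pearson's r of apex and bud fold changes ran from 0.422 to 0.904 in the 11 bins, with a median of 0.703, and from -0.404 to 0.495 in the other 16, with a median of 0.0977. When the called genes were left out, it ran from 0.0431 to 0.786 in the 11 bins, with a median of 0.275. The 3rd bin had the highest value with the called genes and without them, 0.904 and 0.786. No bin of 5A exceeded 0.574 and none of 5D exceeded 0.448.

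Most called genes stood alone. For 15 of the 24 no other called gene lay within 5 members, and the median gap between called genes was 39 members. Of the 183 uncalled members within 5 members of a called gene, 31, or 16.9%, had no overlap of M6 and WT libraries, and 7 had the fold change of at least 1 in both tissues. Of the 2452 other uncalled members, 151, or 6.16%, had no overlap, and 15 had that fold change. The median absolute deviation of the log2 fold change was 0.166 in apex and 0.198 in bud for the near members, and 0.122 and 0.159 for the others. These are descriptions of the same libraries that gave the calls. Reads shared with a near-identical copy on another chromosome could be split between the copies by the quantification, so the level of a single copy carries that uncertainty.

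The bud against apex comparison within WT was not used to choose the chromosome, although it shares the WT libraries. In WT buds 50 members of 5B were called higher and 24 lower than in WT apices, 2.78% of members, beside 2.5% of all tested rows, with 1.61% higher and 0.884% lower. On 5A 49 were higher and 19 lower, 2.54%, and on 5D 43 were higher and 26 lower, 2.46%, and the other 20 chromosomes ran from 2.13% to 2.99%. The share of tissue differences on 5B was thus within the range of the other chromosomes. Without single libraries the count of 74 on 5B became 0 without WT apex replicate 2 or WT bud replicate 2, 2 without WT bud replicate 1, 45 without either M6 apex library, 62 without WT apex replicate 1, and 84 and 85 without M6 bud replicate 1 and 2.

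Among the 24 genes called in M6, 2 were called between the WT tissues. TraesCS5B02G083300 was higher in WT bud than in WT apex by 3.09 ± 0.15 on the log2 scale (limma adjusted p = 0.00581), and TraesCS5B02G202800 by 1.15 ± 0.17 (limma adjusted p = 0.0278), in 2 of 2 bud libraries each. The other 22 did not pass this test. In M6 buds against M6 apices, 0 members of 5B were called higher and 1 lower, beside 0.0884% of all rows, with 0.0334% higher and 0.055% lower. That gene, TraesCS5B02G503500, had 7.75 and 8.58 TPM in M6 buds against 59.2 and 43.5 TPM in M6 apices (log2 fold change -2.50 ± 0.22, limma adjusted p = 0.0355), and 6.00 and 7.47 TPM in WT buds against 37.4 and 25.8 TPM in WT apices. It was lower in bud in both genotypes, and the call was lost without either WT bud library, M6 apex replicate 1 or M6 bud replicate 1. The count of 5B members called between M6 tissues rose when M6 bud replicate 2 was left out. It is therefore not read as a lack of tissue differences in M6. For TraesCS5B02G083300 the log2 fold change of M6 buds over M6 apices was 1.17 ± 0.15 (limma adjusted p = 0.0729). A difference of the M6 effect between bud and apex was called for 0 members by limma, beside 0.0% of all rows, and 216 members, 8.12%, had an unadjusted p under 0.05, beside 8.07% of all rows. The count of members called for this difference moved when M6 bud replicate 2 was left out. No share over all rows is given for that fit, so it is not read as a result about 5B.

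On 5A and 5D the calls were few. TraesCS5A02G036200 was lower in M6 bud, with 2.75 and 3.51 TPM in M6 buds against 9.94 and 11.4 TPM in WT buds, and TraesCS5A02G484800 was lower in M6 apex, with 4.38 and 6.5 TPM in M6 apices against 25.3 and 20.9 TPM in WT apices. TraesCS5D02G014100 and TraesCS5D02G014200, which are neighbours, were higher in M6 bud: TraesCS5D02G014100 had 109 and 98.9 TPM in M6 buds against 4.94 and 7.0 TPM in WT buds, and TraesCS5D02G014200 had 68.0 and 87.9 TPM in M6 buds against 2.83 and 3.10 TPM in WT buds. In apex the pair did not part the genotypes, with 43.3 and 39.9 TPM in M6 apices against 16.7 and 43.9 TPM in WT apices for TraesCS5D02G014100. None of these 4 was called in both tissues, and none was near 0 in a genotype. Across the other 20 chromosomes the number of genes called in M6 in at least 1 tissue ran from 1 to 9, with 9 on 2A, and the share from 0.0395% to 0.337%, against 0.903% on 5B.

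The called 5B genes were looked up in AK58, a second cultivar, whose values are normalised reads and not TPM, so that levels are compared between libraries and not between genes. At least 10 normalised reads in both shoot apex libraries were found for 20 of the 24 called genes, 83.3%, and for 2481 of the 2635 other members, 94.2%. In both bud libraries it was 19, or 79.2%, and 2496, or 94.7%. Normalised reads are not corrected for transcript length, so these shares are not read as a difference between called and other members. Of the genes near 0 in WT, TraesCS5B02G061400 had 1754 and 2327 normalised reads in AK58 apices, and TraesCS5B02G107400 had 855 and 1293. Both were thus expressed in AK58, as in M6. TraesCS5B02G064700, listed at 0 in WT, had 24.2 and 22.1 normalised reads in AK58 apices and 25.2 and 28.8 in AK58 buds. It was listed at 0 in both AK58 leaf libraries and in AK58 root replicate 1, with 16.0 in root replicate 2. TraesCS5B02G549000 was listed at 0 in all 8 AK58 libraries, as it was at or near 0 in WT.

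Of the genes absent or near absent in M6, TraesCS5B02G080800 had 1.67 and 0.849 normalised reads in AK58 apices and 0 in both AK58 buds, so it was near 0 in AK58 too. The others were expressed there. TraesCS5B02G260600 had 3733 and 6154 normalised reads in AK58 apices and TraesCS5B02G552000 had 284 and 484, while TraesCS5B02G124600 had 400.2 and 307. TraesCS5B02G083300 had 938 and 913 normalised reads in AK58 buds against 6.68 and 5.09 in AK58 apices, the same order of tissues as in WT. TraesCS5B02G202800, also higher in WT buds, had the opposite order, with 14.4 and 36.2 normalised reads in AK58 buds against 48.5 and 100.1 in AK58 apices. AK58 buds were 6 weeks old and cold-treated and AK58 apices 2 weeks old, so tissue, age and cold cannot be told apart there. A level near 0 in 1 genotype was thus matched in AK58 for some of these genes and not for others. How M6, WT and AK58 differ in 5B sequence, background or the copies they carry was not tested.

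**Figure D5:**
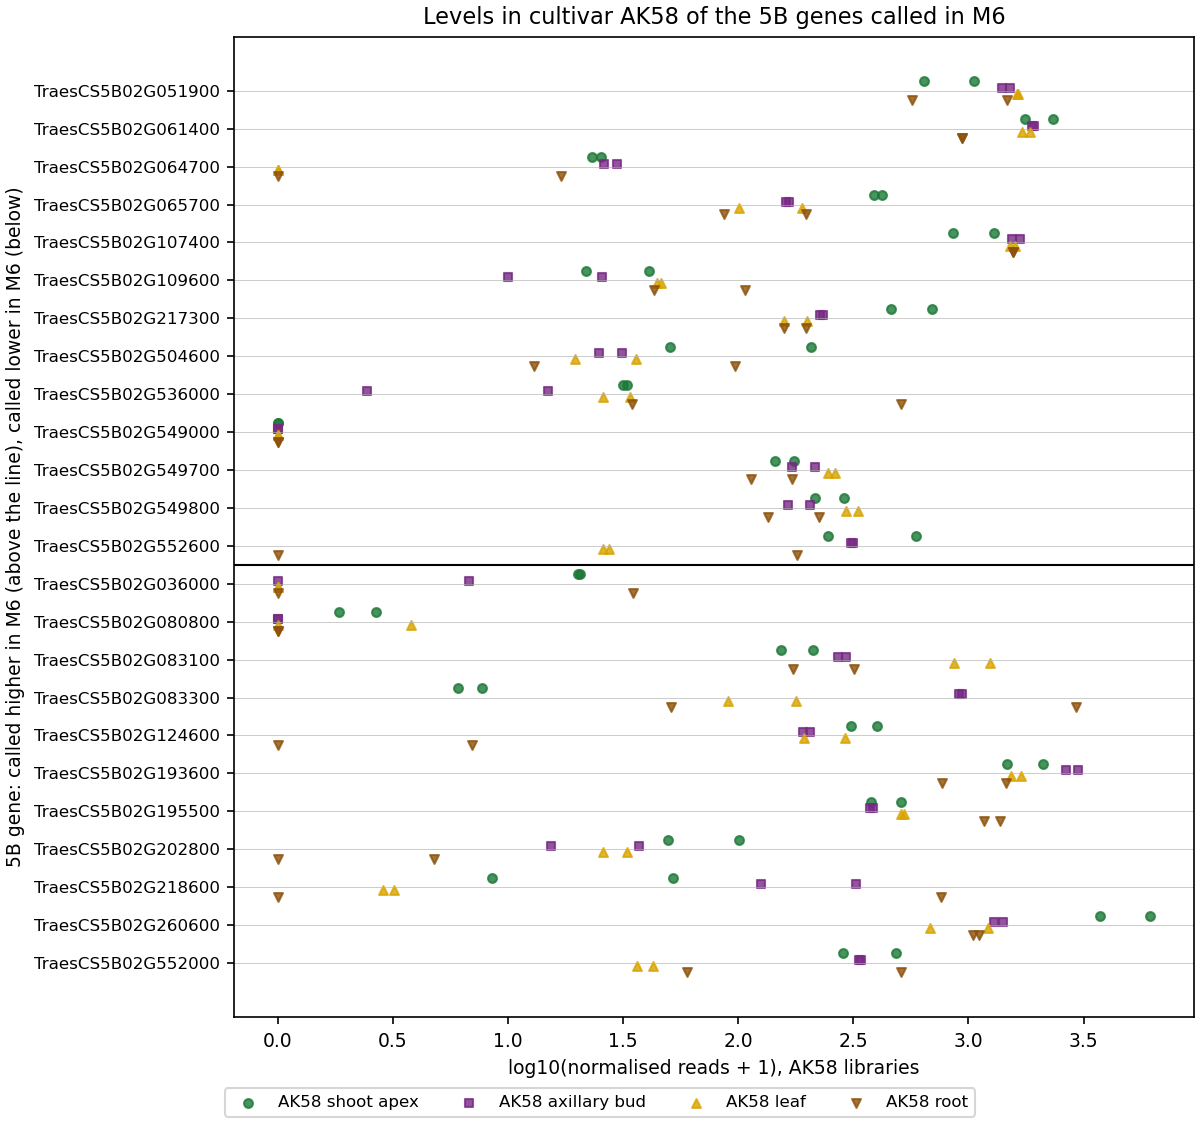
Normalised reads, as log10(value + 1), of the 24 called 5B genes in the 8 AK58 libraries, with genes called higher in M6 above the line and genes called lower below it. TraesCS5B02G061400 and TraesCS5B02G107400 stand far above 0 in every AK58 library, TraesCS5B02G080800 stays under 3, and TraesCS5B02G549000 is at 0 in all 8.

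Near the TPM filter, TraesCS5B02G020500 passed with a second highest value of 1.00 TPM, with 0.384 to 1.00 TPM in M6 and 0.0997 to 1.07 TPM in WT. TraesCS5B02G221400 missed it with a second highest value of 0.998 TPM, and its 8 libraries ran from 0.839 to 1.14 TPM.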

How the data were processed

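Stranded messenger RNA libraries were made with an Illumina TruSeq kit, per the labels' protocols. The submitters' processing notes name Trimmomatic, HISAT2 2.0.5 and StringTie 1.3.3b, and the genome build and annotation are not given in the sources used here. The deposited Zhengmai7698 values are TPM, and each library sums to the same total. The deposited AK58 values are a signal, reads divided by 1 factor per library: 100% of them came out as whole reads within 0.001, between 51497044 and 79585209 reads a library. They were used for levels only, so no count test was run.

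Members and lists were chosen with earlier results of these data known. The 8 Zhengmai7698 libraries entered 1 fit of 4 groups by limma (version 3.58.1, R 4.3.3), which took log2(TPM + 1) and an intensity trend, over rows with at least 1 TPM in at least 2 libraries, with two-sided tests and Benjamini-Hochberg adjustment. The script was tested on simulated data. Every called 5B gene was to be named, with values in each library for those called in both tissues and for up to 12 others, along with the called genes of 5A and 5D, the members beside runs of called genes and those beside the filter. The stretches, the correlations and the counts without overlap were added after the data were seen, as was leaving out each library for the counts without overlap and of fold changes in both tissues. Alternatives were other pseudocounts, filters, scalings and designs, and each library left out in turn.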

Additional observations from a re-analysis of the deposited data

How the results depend on the processing

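Counts of called 5B genes are given as higher and lower. With 0.1 TPM added, 6 were lower in M6 bud, 0 were called in bud on 5A and 3 between M6 tissues. The 5B calls lost were those of TraesCS5B02G036000 and TraesCS5B02G124600 in both tissues, of TraesCS5B02G083100, TraesCS5B02G195500 and TraesCS5B02G218600 in bud and of TraesCS5B02G549000 in apex. With 5 TPM added, the counts were 6 and 5 in apex and 4 and 7 in bud, 9 called the same way in both, 36 between WT tissues, 0 between M6 tissues and 0 in bud on 5A. With no filter, 6 were lower in bud, 11 were called the same way, 34 between WT tissues and 0 between M6 tissues, with 0 in apex and 0 in bud on 5A and 1 in bud on 5D. With a filter of 5 TPM, 5 were higher in apex, the bud had 6 and 5, 9 were called the same way, and 5A had 0 in bud. Median centring gave 2 in apex and 3 in bud on 5A and 6 between M6 tissues, quantile normalization gave 2, 2 and 6, and a fit with no trend gave 2 in apex on 5A and 3 between M6 tissues. Fitting the contrasted groups alone, with fewer samples, gave 3 and 3 in apex, 2 and 3 in bud, 5 the same way, 0 between M6 tissues, 0 in apex and 0 in bud on 5A and 1 in bud on 5D, and the difference of the M6 effect could not be fitted. With no minimum fold change 120 were called between WT tissues. With under 0.5 and at least 5 TPM as the limits, 5 members were switched. The replicate block gave 5 and 4 in apex, 5 and 5 in bud, 7 the same way, 2 between WT tissues, 0 between M6 tissues, 0 in apex and 0 in bud on 5A and 0 in bud on 5D. Differences between replicates correlated between M6 and WT at -0.14 in apex and -0.31 in bud across tested genes. Apex and bud libraries of the same number were not compared, so whether the numbers pair samples or mark a batch was not settled. Bins of 50 or 200 members and of 100 identifiers gave a share with a called gene of 29.6%, 50% and 26.8%. The cause of these changes was not tested.

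With 1 library left out, 5B had 2 to 14 higher and 3 to 9 lower in apex, 2 to 101 higher and 4 to 48 lower in bud, 5 to 22 called the same way, 0 to 85 between WT tissues, 0 to 116 between M6 tissues, 0 to 78 for the difference of the M6 effect and 9 to 10 switched. The lone library of a group was then assumed to vary like the other groups, and no shares over all rows are given for these fits. 5A had 0 to 2 in apex and 0 to 100 in bud, and 5D 0 to 1 and 0 to 99. Members with a fold change in both tissues were 42 to 54 on 5B, 8 to 22 on 5A and 5 to 14 on 5D, and those without overlap, compared over fewer libraries, 250 to 400, 160 to 296 and 147 to 289. Of 42 calls of a 5B gene in a tissue, 11 held in all 8 of these fits and 31 were lost in at least 1, and no named gene changed direction in any alternative. TPM keeps no depth, so the counting error of low values could not be computed.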
